A study of Mus musculus with 18 samples.

Results

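Exon-skipping-only splicing variations were examined in RNA sequencing libraries of mouse fetal liver progenitors in which the RNA-binding proteins PCBP1 or PCBP2 had been knocked down. A local splicing variation (LSV) is the set of junctions that leave 1 exon (a source) or enter 1 exon (a target). Members were the LSVs flagged for exon skipping in the authors' deposited tables, with the flags for alternative 5′ and 3′ splice sites off and no retained intron in the LSV type. The rule gave 33878 LSVs in 7724 genes, which were 26.3% of the 128636 LSVs in the 4 tables together. Of the other LSVs, 66610 combined several kinds of variation, 22456 held a retained intron, 3486 had alternative 3′ splice sites only and 2032 alternative 5′ splice sites only, and 174 had no flags.

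The cells were hematopoietic progenitors enriched from E14.5 CD-1 mouse fetal livers with a commercial kit to which an antibody against CD71 was added, and infected with MSCV-based retroviruses (MSCV-PIG, puromycin-IRES-GFP) that encode a short hairpin RNA (shRNA). The knockdown groups held 3 hairpins each, called SH1, SH3 and SH4, against Pcbp1 or against Pcbp2. The control group held 2 scrambled hairpin libraries (SCR-1, SCR-2) and 1 luciferase hairpin library (LUC-1). Each of the 3 conditions was collected at Day 2, after 2 days in differentiation medium with erythropoietin, and at Day 0, when expansion with erythropoietin, stem cell factor and dexamethasone was over. That made 6 groups of 3 libraries, so all controls were themselves transduced cells. The labels do not say whether the libraries came from separate cultures or litters, and the p-values therefore measure only the spread between these libraries. The authors' splicing tables pooled the 3 libraries of a group, so their values carry no replicate error, and the reads behind each junction are not given in them.

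PCBP1 and PCBP2 are KH-domain proteins that bind single-stranded C-rich RNA and act in splicing, mRNA stability and translation. When an internal cassette exon is skipped, the exons on either side are joined directly. If the skipped exon's length is divisible by 3, the downstream reading frame is kept, and otherwise it shifts and usually meets a premature stop codon. Exons of only a few codons, called microexons, are best known from neurons, where the factor SRRM4 promotes their inclusion. Terminal erythroid differentiation is known for large shifts in both transcript levels and alternative splicing.

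The libraries held 27033440 to 54096339 estimated reads each. The hairpins lowered their targets in every library. Pcbp1 was at 14.2 to 59.4 CPM (library-scaled counts) in PCBP1 knockdown libraries of Day 0, against 186 to 206 CPM in control, and at 15.7 to 57.2 CPM, against 242 to 284 CPM, on Day 2. Pcbp2 was at 70.3 to 73.5 CPM in PCBP2 knockdown libraries of Day 0, against 282 to 299 CPM in control, and at 37.0 to 48.0 CPM, against 225 to 247 CPM, on Day 2. The luciferase control stood apart from the scrambled controls. In a principal component analysis of the Day 2 libraries, LUC-1 had a score of 74.9 on the component with 23.1% of the variance, against 1.27 and 11.4 for SCR-1 and SCR-2. Its score on the Day 0 component with 14.7% of the variance was 26.7, against -17 and -8.63. The SH4 libraries of PCBP1 and PCBP2 knockdown lay on the same side there, at 16.3 and 14. SH1 was at -10.7 and -14.8 and SH3 at 7.78 and -13.7, so that component did not set LUC-1 alone apart. LUC-1 is part of every pooled control value. Values without it are given for the main results on single libraries. Summed erythroid markers lay between 265000 and 352000 CPM on Day 2 and between 5610 and 7680 CPM on Day 0. Granulocyte markers lay between 9.4 and 19.1 CPM on Day 2 and between 1050 and 1280 CPM on Day 0, so myeloid transcripts were also present at the end of expansion.

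The exons below carry the results that follow. They are read on the sense strand, 5′ to 3′, from the GENCODE M21 transcripts of GRCm38, with runs of 3 or more C in capitals because PCBPs are known to bind C-rich RNA. Of 1453 coding cassette exons of up to 300 bases, 67.8% hold at least 1 such run (CCC, sense strand only), so a run in an exon is a description and not a binding site. The first set were exons skipped more in PCBP1 knockdown: Ehmt2 (chr17:34911363-34911478, plus strand, 116 bases), Aars2 (chr17:45517912-45518021, plus strand, 110 bases), Hdac7 (chr15:97808660-97808770, minus strand, 111 bases), Exoc1 (chr5:76557819-76557863, plus strand, 45 bases), Cpt1c (chr7:44959844-44959936, minus strand, 93 bases) and Itga2b (chr11:102460138-102460205, minus strand, 68 bases).
Ehmt2: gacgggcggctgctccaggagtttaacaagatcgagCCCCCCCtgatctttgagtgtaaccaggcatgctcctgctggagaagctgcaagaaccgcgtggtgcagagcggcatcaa
Aars2: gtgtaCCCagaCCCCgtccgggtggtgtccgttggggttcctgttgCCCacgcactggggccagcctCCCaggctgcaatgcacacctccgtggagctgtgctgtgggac
Hdac7: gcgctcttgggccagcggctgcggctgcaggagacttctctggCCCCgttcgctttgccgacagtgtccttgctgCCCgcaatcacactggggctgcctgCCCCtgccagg
Exoc1: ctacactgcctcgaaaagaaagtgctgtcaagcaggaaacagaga
Cpt1c: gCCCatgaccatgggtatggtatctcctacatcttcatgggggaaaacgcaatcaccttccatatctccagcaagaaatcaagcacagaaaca
Itga2b: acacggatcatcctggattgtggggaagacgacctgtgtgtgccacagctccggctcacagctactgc

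The second set were exons skipped less in a knockdown: Mfge8 (chr7:79143278-79143388, minus strand, 111 bases), Nrbf2 (chr10:67271400-67271446, minus strand, 47 bases) and Ddhd1 (chr14:45599102-45599185, minus strand, 84 bases). The Mfge8 exon holds 6 C runs and is 45.0% C, against a median of 23.6% C over the coding cassettes.
Mfge8: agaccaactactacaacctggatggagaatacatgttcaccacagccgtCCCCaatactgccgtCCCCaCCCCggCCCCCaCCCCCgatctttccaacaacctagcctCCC
Nrbf2: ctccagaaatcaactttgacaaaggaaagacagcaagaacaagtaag
Ddhd1: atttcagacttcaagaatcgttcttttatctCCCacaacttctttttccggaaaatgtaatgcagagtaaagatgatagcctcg

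The third set show the shortest cassettes and a frame-preserving exon that was almost always skipped: microexons of Ctnnd1 (chr2:84612532-84612549, minus strand, 18 bases), Nckap1 (chr2:80571213-80571230, minus strand, 18 bases), Cask (chrX:13524825-13524851, minus strand, 27 bases), Anxa6 (chr11:54987051-54987068, minus strand, 18 bases) and Acaca (chr11:84290288-84290311, plus strand, 24 bases), and an exon of Dnmt3b (chr2:153670849-153670908, plus strand, 60 bases).
Ctnnd1: atgagtggttctccagag
Nckap1: caaggacaagtttggaag
Cask: ctgccaaaatggtgcagaaaattgcct
Anxa6: gtggctgctgagatcttg
Acaca: agggaacatCCCCacgctaaacag
Dnmt3b: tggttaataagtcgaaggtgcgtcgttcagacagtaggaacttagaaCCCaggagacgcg

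In most exon-skipping-only LSVs the junction that skips most was nearly unused or nearly the only one used. In the PCBP1 knockdown table of Day 2, the longest junction, the one that skips most, had an expected PSI (E(PSI), the share of the LSV's junction use) under 5% in the pooled control for 70.4% of 18241 LSVs. It was over 95% for 14.0% and between these bounds for 15.5%. In the PCBP1 table of Day 0, with 31076 LSVs, 73.3% lay below, 19.6% above and 7.1% between. The PCBP2 tables held 17746 LSVs for Day 2 and 31691 for Day 0, with 15.4% and 7.5% between the bounds. Of the LSVs, 17245 were listed on both days, 1892 on Day 2 alone and 14741 on Day 0 alone. A pair of junctions made up 53.3% of the PCBP1 LSVs of Day 2 and 59.7% of those of Day 0. Every junction was in the GENCODE M21 annotation for 4.8% of the PCBP1 LSVs of Day 2 and 9.0% of those of Day 0, so nearly all LSVs of the class held at least 1 junction outside the annotation.

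A cassette exon can be read from both of its sides. There were 2159 exons in 1550 genes for which a source LSV and a target LSV, both of 2 junctions, shared the skipping junction. Their skipping level is given as the mean E(PSI) of that junction on the 2 sides. In control at Day 0, the sides differed by a median of 0.2 points over 2123 cassettes, with a 95th percentile of 4.69 points. The median skipping level was 2.55% in control at Day 2, over 699 cassettes, and 1.05% in control at Day 0. The exon was annotated in 1562 cassettes, 1468 of them wholly within coding sequence. The skipping junction was annotated in 762, or 35.3%.

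Coding cassettes that were used both ways kept the reading frame more often than those nearly always included. In control at Day 0, 18 of the 22 coding cassettes with skipping between 20% and 80% had a length divisible by 3 (81.8%, exact 95% binomial interval 59.7% to 94.8%). Among the 66 with skipping of 80% or more, 52 had such a length (78.8%, 67.0% to 87.9%). Below that the share was 43.3% of 90 at 5% to 20% skipping, 41.1% of 353 at 1% to 5%, and 43.0% of 914 under 1%. All 166624 internal coding exons of the annotation had a share of 41.0%. The intervals of the 2 groups above 20% skipping lay wholly above that share, and those of the 3 groups below 20% contained it. Exons of 1 gene can share transcripts, so these intervals cover counting error only.

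Among coding cassettes with skipping of 5% or more in control at Day 0, exon length was divisible by 3 for 69.6% of 112 where the skipping junction was annotated (60.2% to 78.0%) and 47.0% of 66 where it was not (34.6% to 59.7%). On Day 2 the cassettes with skipping of 5% or more gave 38.8% of 80 (28.1% to 50.3%), against 61.2% of 178 (53.7% to 68.4%) on Day 0. Of the 80 Day 2 cassettes, 13 had an annotated skipping junction. The part of annotation in the difference between the days was not tested.

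**Figure D1:**
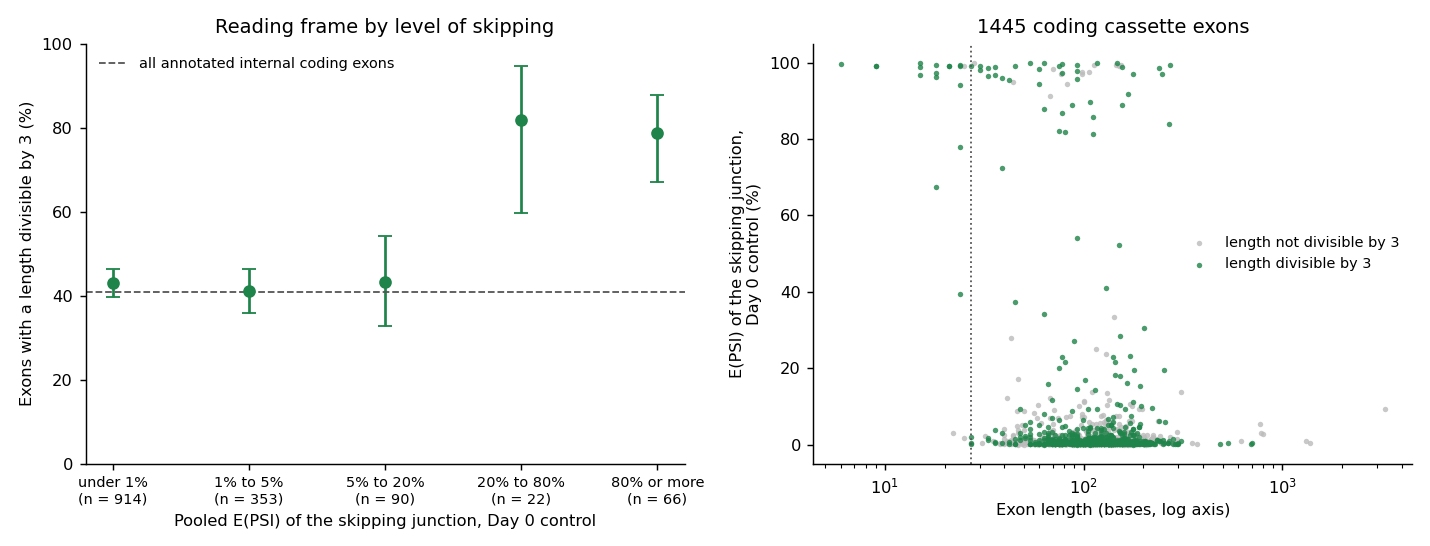
Left, share of coding cassette exons with a length divisible by 3 (y axis, %) by pooled skipping level in Day 0 control (x axis, n below each group); points are shares, bars exact 95% binomial intervals, and the dashed line all internal coding exons (41.0%). Right, exon length in bases (log axis) against the skipping level of the same 1445 exons, the dotted line at 27 bases; the 2 groups above 20% skipping reach 81.8% and 78.8%, and most exons left of the dotted line sit near the top.

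Microexons formed the most heavily skipped group. Of 24 coding cassettes of up to 27 bases, 16 were skipped at 80% or more in control at Day 0 (66.7%), against 50 of the 1421 longer coding cassettes (3.5%). A length divisible by 3 was found in 21 of the 24. The heavily skipped ones included the 18-base exon of Ctnnd1, which encodes a catenin that binds cadherins, at 93.2% in PCBP1 knockdown, 96.2% in PCBP2 knockdown and 96.3% in control. The exon of Nckap1, a subunit of the WAVE actin regulator, was at 99.4%, 99.6% and 99.5% in the same order, and that of the synaptic scaffold gene Cask at 99.2% in control. Short exons of the kinase genes Tnik and Atm, the cytolinker Plec, the transcription factor Mef2c and the cilia gene Cep290 were also in this group.

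A few microexons were included. The 24-base exon of Acaca, acetyl-CoA carboxylase, was skipped at 29.3% in PCBP1 knockdown, 30.6% in PCBP2 knockdown and 39.3% in control. The 18-base exon of Anxa6, annexin A6, was at 64.1% in PCBP1 knockdown and 67.5% in control, and the 24-base exon of Rapgef2, a Rap activator, at 78.3% in PCBP1 knockdown, 84.6% in PCBP2 knockdown and 77.8% in control. The sides of these exons differed widely in control, with 22.2% upstream and 56.5% downstream for Acaca, 96.6% and 38.5% for Anxa6, and 84.7% and 71.0% for Rapgef2, so their means are loose values. Short exons of Prpf38a, Col18a1, Fcho1, Dapk3 and Hsd17b4 were skipped under 5%. Across the microexons, the difference from control ranged between -10 and 3.9 points in PCBP1 knockdown and between -8.7 and 6.8 points in PCBP2 knockdown, with medians of -0.1 and 0.0 points.

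Longer exons skipped at 80% or more included forms known to be alternative in other tissues. The 240-base exon of Tjp1, which encodes the tight junction protein ZO-1, was skipped at 98.6% in control at Day 0, and a 63-base exon of Myh10, non-muscle myosin heavy chain IIB, at 99.9%. The 273-base exon of Fn1, fibronectin, was skipped at 99.2% in PCBP1 knockdown, 99.4% in PCBP2 knockdown and 99.3% in control. Its 270-base exon was skipped at 73.4%, 72.6% and 84.0% in the same order. A 60-base exon of the DNA methyltransferase gene Dnmt3b was at 92.8%, 91.0% and 94.5%, and the 78-base exon of Add3, adducin 3 of the membrane skeleton, at 98.0% in control of Day 2 and 99.6% in control of Day 0. Of the 66 exons, 64 had an annotated skipping junction. The median difference from control was 0.0 points in both knockdowns, over 60 exons listed with PCBP1 knockdown and 66 with PCBP2 knockdown.

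The 22 intermediate exons differed from control in both directions. Their differences from control ranged between -23.4 and 19.1 points in PCBP1 knockdown and between -12.3 and 11.2 points in PCBP2 knockdown. An exon of the RNA-binding protein gene Celf2 was skipped at 19.9% in PCBP1 knockdown, 25.3% in PCBP2 knockdown and 21.6% in control. That of Evl, an Ena/VASP actin regulator, was at 43.9%, 39.7% and 34.1%, and that of the guanine nucleotide exchange factor gene Arhgef11 at 54.4%, 52.0% and 41.1%. These are pooled values, for which the tables give no replicate spread.

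PCBP1 knockdown on Day 0 gave 15 called LSVs in 12 genes. An LSV was called where the authors' deposited table gave a posterior of at least 0.95 that the PSI of some junction had changed by 0.20 or more. The calls were 0.0483% of the exon-skipping-only LSVs, against 0.0573% of all 120408 LSVs in that table, so the class was called about as often as the rest. The lowest posterior called was 0.956 and the highest not called 0.949. Both sides of a cassette were called in Ehmt2, Aars2 and Tcof1, each with more skipping. The exons of Mfge8, Nrbf2, R3hdm1 and Tmem80 were skipped less.

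Ehmt2 encodes G9a, a histone methyltransferase. The 116-base exon printed above was skipped at 40.2% from its upstream side and 37.3% from its downstream side in PCBP1 knockdown, against 6.7% and 4.0% in control. PCBP2 knockdown had 5.0% and 3.9%. In the authors' deposited table, E(dPSI), the expected difference in PSI, was 33.9 points for the skipping junction of the source LSV with a posterior of 0.997. The length of 116 bases is not divisible by 3. The transcripts quantified by Salmon gave a readout in each library. The share of TPM (a transcript's length-scaled share of a library) in transcripts with the skipping junction was 19.9%, 14.5% and 20% in SH1, SH3 and SH4 of PCBP1 knockdown, against 5.0%, 3.1% and 3.8% in the control libraries SCR-1, SCR-2 and LUC-1. The groups did not overlap. PCBP2 knockdown libraries had 7.7%, 5.3% and 7.4%.

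In limma's moderated test on the log2 ratio of skipping to including TPM, with 0.5 TPM added to each, the Ehmt2 ratio rose by 2.12 (SE 0.254, adjusted p = 0.0109) in PCBP1 knockdown relative to control. The upstream and downstream LSVs of this exon were 2 of the 1879 exon-skipping-only LSVs fitted, and no others were called. The share over all 2342 intron-free LSVs fitted was 0.128%. Without the luciferase control the log2 difference was 2.13 and limma's adjusted p 0.0725. Leaving out SCR-2, SH1 or SH4 gave 1.98, 2.03 and 2.04, with adjusted p of 0.0795, 0.0605 and 0.0758 from limma, so the call was lost while the size of the difference stayed near 2.12. Without SCR-1 or SH3 limma's adjusted p was 0.0283 and 0.0156. Between the days, the Ehmt2 log2 ratio rose by 3.105 in control, 1.03 in PCBP1 knockdown and 2.073 in PCBP2 knockdown. Limma's adjusted p was 4.13e-08, 0.00226 and 2.81e-06. The rise in control exceeded the knockdown difference of Day 0. The exon was not among the LSVs fitted for knockdown on Day 2, because its transcripts fell under the TPM limits of the fit. It was also not listed with PCBP1 knockdown on Day 2. At low TPM, the 0.5 TPM added to each part draws the ratio toward equal parts. These rises therefore do not measure skipping alone, and whether skipping rose between the days was not tested. Limma's counts between the days depended on the TPM added. Ehmt2 itself fell to 30.9 ± 6.41 CPM in PCBP1 knockdown, against 61.1 ± 4.33 CPM in control (SD, n = 3 each), a log2 fold change of -0.986 with an edgeR adjusted p of 5.52e-04. The transcript share and E(PSI) come from the same reads and are not independent of each other.

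**Figure D2:**
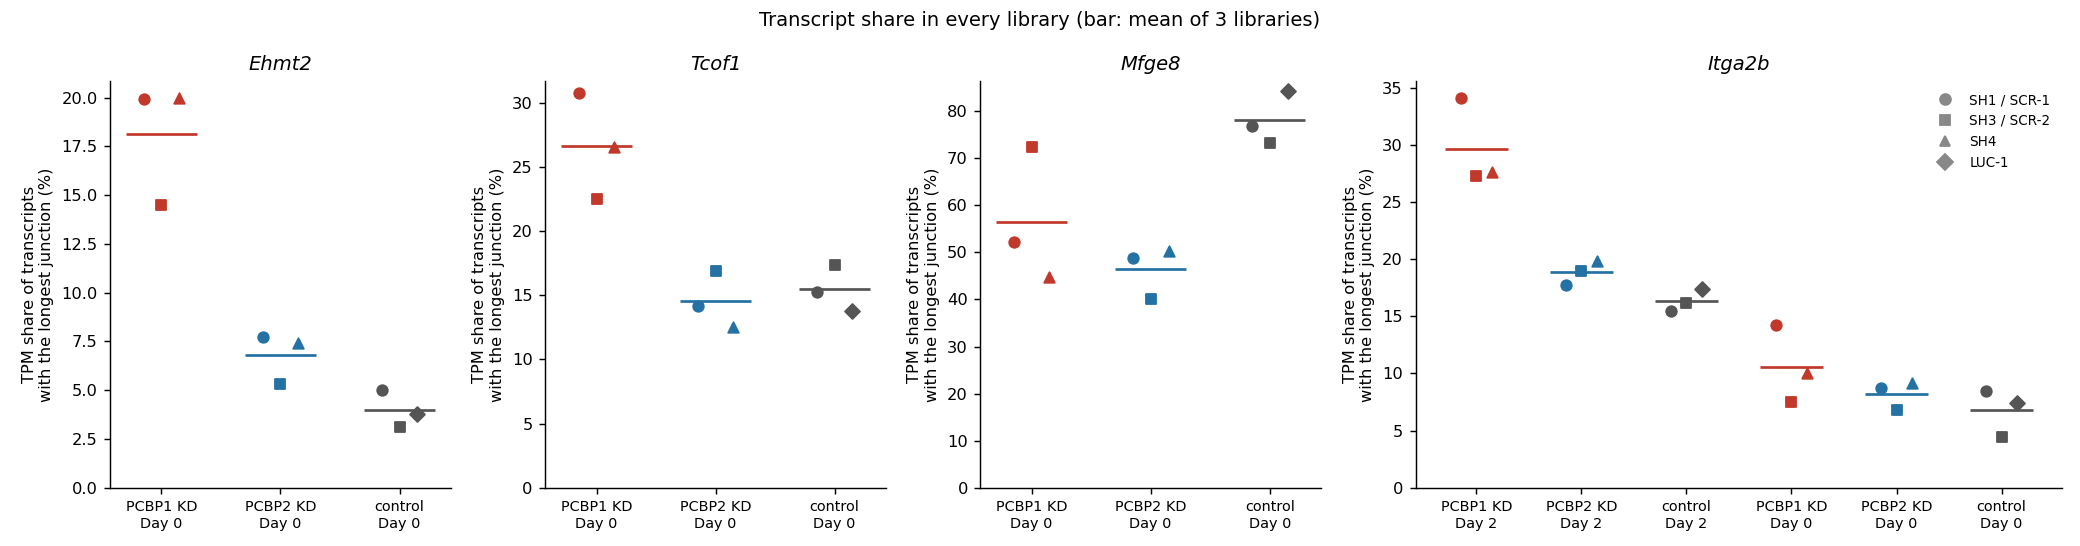
TPM share of transcripts with the longest junction (y axis, %) in every library for Ehmt2, Tcof1 and Mfge8 on Day 0 and Itga2b on both days; points are libraries by hairpin and bars group means of 3. The Ehmt2 shares of PCBP1 knockdown (14.5% to 20%) lie above those of PCBP2 knockdown (5.3% to 7.7%) and of control (3.1% to 5.0%).

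Aars2 encodes the mitochondrial alanyl-tRNA synthetase. Its 110-base exon was skipped at 46.3% and 39.0% from its 2 sides in PCBP1 knockdown, at 5.1% and 2.8% in PCBP2 knockdown, and at 4.9% and 2.9% in control. The skipping junction is not in the annotation, so no quantified transcript carries it and no value per library could be had. Tcof1 encodes treacle, which acts in ribosomal RNA transcription. Its 144-base exon was skipped at 61.6% and 48.6% in PCBP1 knockdown, at 17.3% and 15% in PCBP2 knockdown, and at 19.0% and 17.6% in control. The Tcof1 transcript shares were 30.8%, 22.5% and 26.6% in SH1, SH3 and SH4 of PCBP1 knockdown, against 15.3%, 17.4% and 13.8% in SCR-1, SCR-2 and LUC-1. These groups did not overlap, but the log2 ratio difference of 0.94 (SE 0.241) did not pass the test (limma adjusted p = 0.205), and was 0.85 without LUC-1 (limma adjusted p = 0.389). Between the days, the Tcof1 log2 ratio rose by 1.599 in control, 0.735 in PCBP1 knockdown and 2.141 in PCBP2 knockdown. Limma's adjusted p was 1e-04, 0.0321 and 5.51e-06. This exon had no knockdown fit on Day 2 either and was not listed with PCBP1 knockdown there, so the limit given for the Ehmt2 rises holds here too. Skipping of the Tcof1 exon keeps the reading frame, unlike skipping of the Ehmt2 or Aars2 exon.

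Mfge8 encodes a secreted protein that bridges phosphatidylserine on apoptotic cells and integrins on phagocytes. Its C-rich 111-base exon is skipped in the short form. Skipping read from the upstream side was 50.4% in PCBP1 knockdown, 50.8% in PCBP2 knockdown and 84.5% in control, and this LSV was the only exon-skipping-only one called in both Day 0 tables. Read from the downstream side it was 80.3%, 62.8% and 78.3%, so the sides agreed on a lower value in PCBP2 knockdown but not in PCBP1 knockdown. The Mfge8 transcript shares of the short form were 52.2%, 72.3% and 44.7% in PCBP1 knockdown, 48.9%, 40.0% and 50.4% in PCBP2 knockdown, and 76.9%, 73.3% and 84.2% in control. All 6 knockdown libraries lay below all 3 controls. The log2 ratio differences were -1.17 (SE 0.354) in PCBP1 knockdown and -1.63 (SE 0.354) in PCBP2 knockdown, and neither passed the test (limma adjusted p = 0.356 and 0.333). Without LUC-1 they were -0.99 and -1.45 (limma adjusted p = 0.485 and 0.603). Mfge8 itself was low, at 2.91 ± 0.168 CPM in PCBP1 knockdown, 3.47 ± 0.381 CPM in PCBP2 knockdown and 4.43 ± 0.391 CPM in control (SD, n = 3 each). Summed macrophage markers, all 4 of them detected, also stood lower in the knockdowns, at 34.4 to 37.3 CPM with PCBP1 knockdown and 35.4 to 37.7 CPM with PCBP2 knockdown, against 40.2 to 44.1 CPM in control. Their part in the Mfge8 values was not tested.

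The remaining Day 0 calls with PCBP1 knockdown were of mixed structure. Skipping of the 47-base exon of Nrbf2, a subunit of the autophagy lipid kinase complex, was 45.1% in PCBP1 knockdown, 54.7% in PCBP2 knockdown and 81.5% in control. The transcript readout moved less: the Nrbf2 shares were 85.7%, 83.1% and 90.1% in PCBP1 knockdown, against 92.0%, 89.3% and 94.1% in control, with a log2 ratio difference of -0.71 (limma adjusted p = 0.472). The longest junction of R3hdm1, an R3H-domain gene, was used at 49.5% in PCBP1 knockdown, 71.0% in PCBP2 knockdown and 90.6% in control. That of Tmem80, a transmembrane protein gene, was at 12.4%, 41.1% and 45.8%. The Tmem80 log2 ratio difference for PCBP1 knockdown was -0.221 (SE 0.355, limma adjusted p = 0.871). In Atat1, the alpha-tubulin acetyltransferase, the nearest junction was at 16% in PCBP1 knockdown and 60.3% in control. Junctions of Clasp1, a microtubule plus-end protein, were at 66.2% and 25.8%, and of Whsc1l1, the histone methyltransferase NSD3, at 86.0% and 55.3%. Calls under Snora41 and Gm20707 fall on names that overlap other genes, and their host is uncertain.

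The exons with more skipping in PCBP1 knockdown, the called Aars2, Tcof1 and Ehmt2 exons among them, often lay between short introns. Of the 1383 coding cassettes listed on Day 0, 1299 (93.9%) had skipping within 5 points of control. Pooled skipping was at least 10 points above control in 18 and at least 10 points below in 9. This limit was chosen after the values were seen. E(dPSI) in the authors' deposited table was smaller than such differences. Over 1464 junctions of the class with a PSI difference over 10 points, the median ratio was 0.316. By the sides' mean E(dPSI), 5 of all 2034 simple cassettes listed lay at least 10 points above control and 4 at least 10 below. The 18 exons had a median upstream intron of 240.5 bases and a median downstream intron of 169 bases, against 2993 and 1639 bases for the 9 exons below control and 1324 and 1328 bases for all 1383. Both introns were under 500 bases for 11 of the 18 (61.1%), for 0 of the 9, and for 185 of the 1383 (13.4%). The corresponding sets of the other tables, all smaller, had both introns under 500 bases for 3 of 8 exons above control with PCBP2 knockdown on Day 0, 2 of 5 with PCBP1 knockdown on Day 2 and 2 of 5 with PCBP2 knockdown on Day 2, against 195 of 1425, 62 of 422 and 58 of 387 coding cassettes listed there. No test was run, because the sets were picked on their values. Intron length, expression level and read number per junction were not separated.

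**Figure D3:**
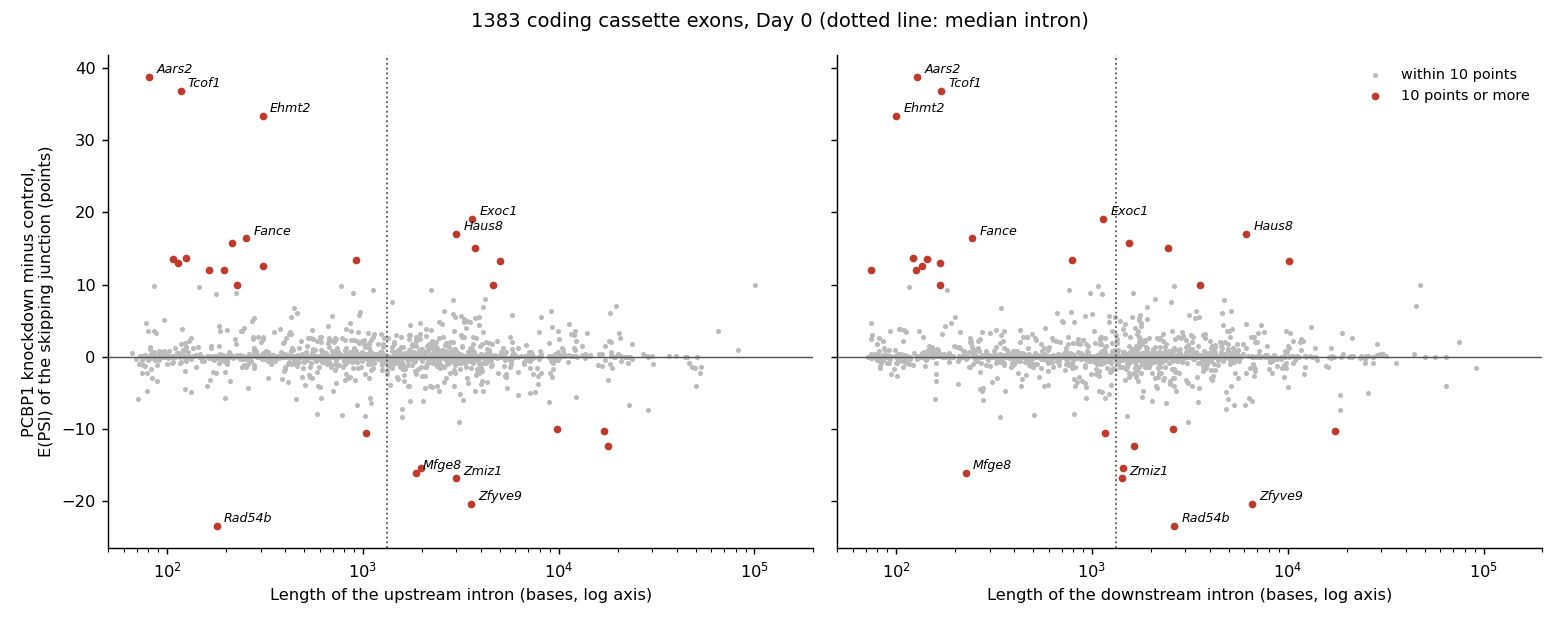
Difference in pooled skipping E(PSI) between PCBP1 knockdown and control at Day 0 (y axis, percentage points) against the length of the upstream intron (left) and of the downstream intron (right), in bases on a log axis, for 1383 coding cassettes. Red points differ by 10 points or more and the dotted lines are the median introns (1324 and 1328 bases); Aars2, Tcof1 and Ehmt2 stand above 30 points at introns between 81 and 307 bases.

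Among the 18 exons, those between short introns came from genes of several functions. Skipping of the Hdac7 exon, from a class IIa histone deacetylase, was 97.6% in PCBP1 knockdown, 96.2% in PCBP2 knockdown and 85.7% in control. The Hdac7 transcript shares were 99.1%, 93.0% and 95.5% in PCBP1 knockdown, 90.9%, 90.4% and 87.7% in PCBP2 knockdown, and 80.1%, 76.4% and 85.8% in control, with a log2 ratio difference of 1.96 for PCBP1 knockdown (SE 0.38, limma adjusted p = 0.134).

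Others with short introns on both sides were Fance, of the Fanconi anemia core complex, at 32.3% in PCBP1 knockdown and 15.9% in control, Snx32, a sorting nexin, at 14.6% and 0.9%, and Lsp1, a leukocyte actin-binding protein, at 13.1% and 0.5%. Ddx11, a DNA helicase, was at 12.8% and 0.9%, Cpt1c, of the carnitine palmitoyltransferase family, at 13.7% and 0.7%, and Rabl2, a small GTPase, at 10.4% and 0.4%. PCBP2 knockdown lay near control in several of them, with Fance at 15.1%, Snx32 at 0.6%, Cpt1c at 0.7% and Rabl2 at 1.2%, but not in Lsp1 at 10.0% or Ddx11 at 5.8%. The transcript ratios of Fance and Rabl2 did not show the junction difference of PCBP1 knockdown. Their log2 ratio differences were 0.119 (SE 0.474, limma adjusted p = 0.947) and -0.122 (SE 0.804, limma adjusted p = 0.969). Exoc1, an exocyst subunit, showed that long introns also occurred. Between introns of 3613 and 1140 bases, its 45-base exon was skipped at 56.4% in PCBP1 knockdown, 35.0% in PCBP2 knockdown and 37.2% in control. The Exoc1 shares were 49.3%, 46.2% and 53.8% in PCBP1 knockdown, 39.3%, 28.7% and 37.0% in PCBP2 knockdown, and 29.1%, 30.1% and 30.4% in control, with a log2 ratio difference of 1.15 for PCBP1 knockdown (SE 0.241, limma adjusted p = 0.134).

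The others among the 18 were Haus8, of the augmin complex, at 27.4% in PCBP1 knockdown and 10.4% in control, Gnat2 at 39.6% and 23.8%, Jade2 at 15.9% and 0.8%, Cblb, a ubiquitin ligase, at 13.9% and 0.6%, Dcp1b, of mRNA decapping, at 22.3% and 12.3%, and Arhgef11. Each of these 6 had at least 1 flanking intron over 500 bases. PCBP2 knockdown was at 13.0% in Haus8, 35.0% in Gnat2, 1.0% in Jade2, 0.5% in Cblb, 19.4% in Dcp1b and 52.0% in Arhgef11. In Gnat2, Dcp1b and Arhgef11 it lay nearer to PCBP1 knockdown than to control.

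All 9 exons with less skipping in PCBP1 knockdown had a length divisible by 3, against 11 of the 18 with more and 621 of all 1383 listed. Besides Mfge8, Fn1 and Acaca they were in Rad54b, a recombination factor, at 7.2% in PCBP1 knockdown and 30.6% in control, Zfyve9, an endosomal SMAD anchor, at 1.2% and 21.6%, and Zmiz1, a transcriptional coregulator, at 2.6% and 19.4%. Myo5a, myosin Va, was at 66.8% and 82.2%, Arhgap10 at 5.5% and 17.9%, and Cables1 at 12.8% and 23.0%. A drop of 10 points needs control skipping of at least 10%, and the 9 exons had 17.9% to 84.0% in control. Among coding cassettes, 81.8% of the 22 with control skipping of 20% to 80% had a length divisible by 3. At 80% or more it was 78.8% of 66. Set beside all 1383, the share among the 9 therefore cannot be read as an effect of the knockdown. Transcript ratios could be fitted for 8 of the 18 and 5 of the 9. Of these, 7 and 5 lay in the same direction as the junction values, and 5 and 1 had an unadjusted limma p under 0.05. The exons were picked on junction values from the same reads, so these counts are not separate support for the differences. Only Ehmt2 passed after adjustment.

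PCBP2 knockdown on Day 0 gave 1 called LSV, Mfge8, or 0.00316% of its exon-skipping-only LSVs against 0.0115% of all LSVs. The next in posterior were not called. The authors' deposited table gave 0.937 for 5830428H23Rik, with skipping of 37.3% in PCBP2 knockdown and 4.6% in control, 0.772 for the target LSV of Nrbf2, at 46.2% and 78.8%, and 0.675 for Msr1, the macrophage scavenger receptor, at 3.4% and 33.1%. Of 1425 coding cassettes, 94.0% had skipping within 5 points of control, 8 lay at least 10 points above and 7 at least 10 points below. Those above included Polrmt, the mitochondrial RNA polymerase, at 12.7% in PCBP2 knockdown and 0.5% in control, and Slc25a1, the mitochondrial citrate carrier, at 21.9% and 11.5%. Gnat2, Arhgef11 and Hdac7 above and Mfge8, Rad54b, Zfyve9, Fn1 and Myo5a below were also in the sets of PCBP1 knockdown. Both sets share the same pooled control. By the sides' mean E(dPSI), 0 of all 2096 simple cassettes listed lay at least 10 points above control and 3 at least 10 below. No exon-skipping-only LSV passed limma's test, and the share over all fitted LSVs was 0.0%, both after adjustment. At an unadjusted limma p under 0.05 there were 104, out of the same LSVs as were fitted for PCBP1 knockdown on Day 0. That count was not set against all fitted LSVs at the same limit and is not read as a difference.

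The knockdowns were also compared with each other. On Day 0, 0 exon-skipping-only LSVs passed limma's test between PCBP1 and PCBP2 knockdown, and 0.0% of all 2342 fitted LSVs did. For Ehmt2, the log2 ratio was higher in PCBP1 than in PCBP2 knockdown by 1.47 (SE 0.254, limma adjusted p = 0.0757). For Mfge8, it differed by 0.46 (SE 0.354, limma adjusted p = 0.761). A difference between the proteins in these exons was therefore not called, and the design has 3 libraries a group. Day 2 gave 0 of the exon-skipping-only LSVs and 0.0% of all fitted ones.

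On Day 2, PCBP1 knockdown gave 24 called LSVs in 23 genes, which were 0.132% of the exon-skipping-only LSVs, against 0.191% of all 87825. Only 2 of the 24 had every junction annotated, Itga2b and Ddhd1. In 9 the LSV had 2 junctions, and in the others several exons or starts competed, with 17 junctions in Myh10. Transcript ratios could be fitted for 694 exon-skipping-only LSVs. None passed limma's test, 85 had an unadjusted p under 0.05, and the share over all 848 fitted LSVs was 0.0%.

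Itga2b encodes integrin alpha IIb (CD41), a marker of early progenitors and megakaryocytes. Skipping of its 68-base exon, read from the upstream side, was 27.8% in PCBP1 knockdown, 6.4% in PCBP2 knockdown and 3.6% in control on Day 2, and the posterior in the authors' deposited table was 0.951, the lowest of the calls. Its length is not divisible by 3. The Itga2b transcript shares on Day 2 were 34.1%, 27.3% and 27.6% in SH1, SH3 and SH4 of PCBP1 knockdown, 17.7%, 19.0% and 19.8% in PCBP2 knockdown, and 15.5%, 16.2% and 17.4% in the control libraries. The PCBP1 knockdown libraries stood above all others with no overlap. The log2 ratio difference was 1.06 against control (SE 0.201, limma adjusted p = 0.263) and 0.83 against PCBP2 knockdown (SE 0.201, limma adjusted p = 0.167). Without LUC-1 the difference from control was 1.11 (limma adjusted p = 0.337). On Day 0, the junction value was 9.4% in PCBP1 knockdown and 3.0% in control. Summed megakaryocyte markers, Itga2b among them, lay between 361 and 418 CPM in PCBP1 knockdown, 305 and 391 CPM in PCBP2 knockdown and 276 and 335 CPM in control on Day 2. Their part in the result was not tested.

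Cpt1c was the 1 simple cassette called from both sides on Day 2. Its 93-base exon was skipped at 53.5% and 43.5% from its 2 sides in PCBP1 knockdown, at 43.4% and 24% in PCBP2 knockdown, and at 17.9% and 11.2% in control, through an unannotated junction. Other exons with more skipping were in Agrn, the basement membrane proteoglycan agrin, at 45.2% in PCBP1 knockdown, 14.3% in PCBP2 knockdown and 8.9% in control, and in Ctns, the lysosomal cystine transporter, at 50.1% in PCBP1 knockdown and 6.6% in control. Snx22, a sorting nexin, was at 86.5% and 49.2%. These skipping junctions are all outside the annotation.

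Less skipping was called in Ddhd1, a phosphatidic acid phospholipase, at 38.1% in PCBP1 knockdown, 62.3% in PCBP2 knockdown and 70.3% in control. Its transcript ratio did not follow, with a log2 difference of -0.20 (SE 0.314, limma adjusted p = 0.817). Ptbp3 encodes a blood cell paralog of the polypyrimidine tract-binding splicing repressor. A shorter junction was at 72.1% in PCBP1 knockdown and 29.5% in control, and the skipping one at 27.4% and 67.6%. The Ptbp3 transcript shares averaged 65.4% in PCBP1 knockdown and 64.9% in control, so the transcript readout did not show this difference either.

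In the other Day 2 calls, 1 of several competing junctions changed its share. The nearest junction of Tsnaxip1 was at 2.2% in PCBP1 knockdown, 32.0% in PCBP2 knockdown and 61.3% in control, and an unannotated one of Adamtsl5 at 53.8%, 7.3% and 5.5%. An annotated one of Carm1, an arginine methyltransferase, was at 56.5%, 47.4% and 19.0%. Junctions of Hadhb, of mitochondrial fatty acid oxidation, were at 90.2% in PCBP1 knockdown and 42.7% in control, of the chromatin remodelling subunit Arid1b at 98.0% and 59.7%, and of Erh at 44.3% and 10.9%. Those of Hook2, a microtubule adaptor, were at 19.0% and 57.2%, and of Tbc1d10b, a Rab GTPase-activating protein, at 42.0% and 8.3%. Junctions of Baz2b, a bromodomain protein gene, were at 95.9% and 65.1%, of Myh10 at 58.5% and 25.4%, of the ribonuclease gene Ear1 at 85.2% and 44.5%, and of the lipid phosphatase gene Fig4 at 2.5% and 41.0%. The names Gm20492 and Gm25802 overlap other genes and are uncertain as hosts.

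**Figure D4:**
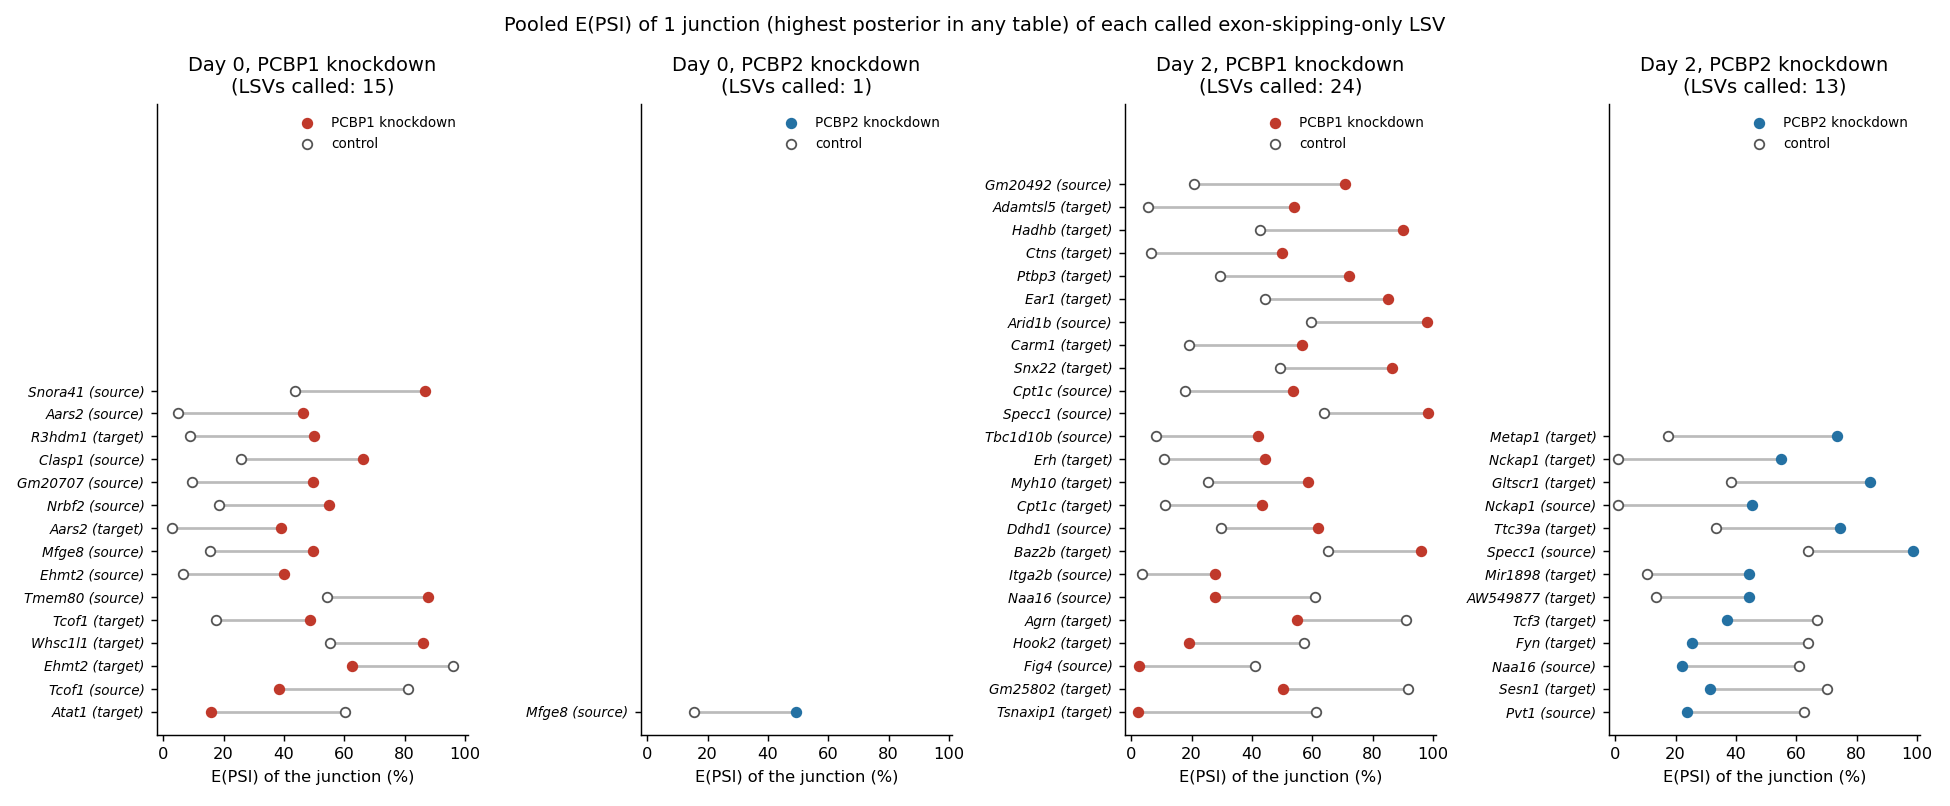
Pooled E(PSI) in % (x axis) of 1 junction of each called exon-skipping-only LSV, the one with the highest posterior in any table, with 1 panel per table; filled points are the knockdown and open points the control. Tables hold 15, 1, 24 and 13 called LSVs, and a point to the right of its open partner is a junction used more in the knockdown.

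PCBP2 knockdown on Day 2 gave 13 called LSVs in 12 genes, or 0.0733% of the exon-skipping-only LSVs against 0.0718% of all 86298. In Nckap1, an unannotated junction that starts at an 81-base exon (chr2:80512677-80512757, minus strand) and skips the next was at 45.3% and 55.1% from the 2 sides in PCBP2 knockdown, 4.6% and 4.9% in PCBP1 knockdown, and 1.0% and 1.0% in control. In Metap1, a methionine aminopeptidase, the skipping junction was at 25% in PCBP2 knockdown and 78.0% in control, and an unannotated one at 73.4% and 17.6%. The E-protein transcription factor gene Tcf3 had its longest junction at 36.9% and 67.0%. Fyn, a Src-family kinase, had an intermediate junction at 25.5% and 63.9%, and the stress-response gene Sesn1 one at 31.5% and 70.2%. Junctions of Gltscr1, of a chromatin remodelling complex, were at 84.3% and 38.4%, of the long noncoding RNA Pvt1 at 23.7% and 62.7%, of Ttc39a at 74.4% and 33.5%, and of AW549877 at 44.2% and 13.5%. The call under Mir1898 falls on a name with an uncertain host. Naa16, an N-terminal acetyltransferase subunit, and Specc1 were called in both Day 2 tables. The same Naa16 junction was at 27.8% in PCBP1 knockdown, where another junction of the LSV carried the call, 22.3% in PCBP2 knockdown and 60.9% in control, and Specc1 at 98.3%, 98.8% and 64.0%. Their values in the 2 tables share the same pooled control.

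Of the transcript ratios on Day 2, 1 exon-skipping-only LSV passed limma's test for PCBP2 knockdown, against 0.118% of all fitted LSVs. It lay in Dnajb12, an endoplasmic reticulum co-chaperone, with shares of 14.8%, 12.7% and 8.4% in PCBP2 knockdown, against 0.0%, 0.0% and 3.0% in control (log2 difference 2.43, SE 0.37, limma adjusted p = 0.0414). The junction values did not show it, at 0.6% in PCBP2 knockdown and 0.2% in control. The LUC-1 share was the highest of the controls, and the Dnajb12 call was kept without that library (log2 difference 2.85, limma adjusted p = 0.0036). Without any other single library of the comparison the call was lost, with limma adjusted p of 0.0682 to 0.286, while the log2 difference lay between 2.19 and 2.63.

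Calls of Day 2 were looked up on Day 0, where the controls are other libraries. Of the 24 LSVs called with PCBP1 knockdown on Day 2, 13 had their junction listed on Day 0. Of these, 10 differed from control in the same direction, 9 of them by at least 2 points. Cpt1c was counted from both of its sides. Cpt1c was at 14.9% and 12.4% in PCBP1 knockdown, against 0.7% and 0.7% in control, Ctns at 6.3% and 0.3%, Tbc1d10b at 6.7% and 0.3%, Erh at 32.1% and 25.8%, and Naa16 at 10.0% and 18.9%. Hadhb at 98.2% and 98.8% and Arid1b at 97.7% and 99.5% lay in the opposite direction, and Fig4 was at 0.1% in both. Of the 13 LSVs called with PCBP2 knockdown on Day 2, 9 were listed on Day 0 and 7 had the same direction, 5 by at least 2 points. Nckap1 was counted from both of its sides. Metap1 was at 14.8% in PCBP2 knockdown and 6.1% in control, while Nckap1 lay the other way, at 6.4% and 7.6%. Only 1 of the 15 LSVs called with PCBP1 knockdown on Day 0 was listed on Day 2, and 0 of the 1 called with PCBP2 knockdown. The Day 0 differences were mostly smaller than those of Day 2. How often junctions of all listed LSVs kept their direction between the days was not counted.

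Levels of the genes that host exon-skipping-only LSVs were compared in the same libraries. Of 7433 host genes tested with edgeR, 96 were called in PCBP1 knockdown on Day 0 (1.29%, against 0.88% of all 17500 genes), 4 higher and 92 lower. PCBP2 knockdown had 2 (0.0269%, against 0.0229%). On Day 2 the counts were 1277 (17.2%, against 13.1%) and 473 (6.36%, against 4.7%). These counts moved with single libraries: on Day 0 they lay between 9 and 76 for PCBP1 knockdown without a library, with 9 without SH1, 11 without SCR-2, 17 without SH4, 18 without SCR-1, 53 without SH3 and 76 without LUC-1. On Day 2 the PCBP1 count was 814 without LUC-1, 787 without SH1 and 840 without SH4, and the PCBP2 count 543 without LUC-1 and 248 without SH4. They also depended on the libraries fitted together. With the 9 libraries of a day alone, 643 host genes were called with PCBP1 knockdown on Day 0, and 434 and 18 with PCBP1 and PCBP2 knockdown on Day 2.

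For the called LSVs, 1 of 12 hosts was lower with PCBP1 knockdown on Day 0, where 0.834% of all genes were lower, and 9 of 22 on Day 2, where 7.61% were. With PCBP2 knockdown on Day 2, 2 of 12 were lower, where 3.75% were. None was higher in these comparisons by edgeR. Adamtsl5 fell to 34.6 ± 10.8 CPM in PCBP1 knockdown of Day 2, against 103 ± 38.7 CPM in control (log2 fold change -1.58, edgeR adjusted p = 9.36e-05). Hook2 fell to 17.6 ± 4.13 CPM, against 32.1 ± 4.43 CPM (-0.87, edgeR adjusted p = 8.15e-04). Tcf3 fell to 47.4 ± 4.89 CPM in PCBP2 knockdown of Day 2, against 91.8 ± 35.9 CPM in control (-0.95, edgeR adjusted p = 0.00628; SD, n = 3 each). The other lower host there was Gltscr1, under its newer symbol Bicra, at 71.6 ± 5.25 CPM, against 125 ± 23.5 CPM (-0.80, edgeR adjusted p = 0.00324). Without LUC-1 the log2 fold changes of Adamtsl5, Hook2, Tcf3 and Bicra were -1.29, -0.84, -0.69 and -0.71, all with an edgeR adjusted p under 0.05, and these 4 calls were kept without any single library of their comparison. Of the 9 hosts lower with PCBP1 knockdown on Day 2, 4 lost the call when 1 library was left out, and 6 were called without LUC-1. Fig4 (-0.34, edgeR adjusted p = 0.112), Tsnaxip1 (-0.595, 0.0837) and Tbc1d10b (-0.33, 0.0517) lost it without LUC-1. Fig4 and Tsnaxip1 also lost it without SH4, at 0.0696 and 0.0731 by edgeR. Agrn lost it without SH3, SH4, SCR-1 or SCR-2, with edgeR adjusted p of 0.0631 to 0.129. The host calls and their repeats without a library come from fits that hold the libraries of both days. With the libraries of Day 2 alone far fewer host genes were called. Single hosts were not followed in that fit, so whether these calls would hold there is not known. In bulk RNA, fewer cells of a type and less RNA per cell cannot be told apart.

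Gene lists put the calls in context. Among 61 splicing regulators, 39 held 143 exon-skipping-only LSVs, with 1 called, Ptbp3 with PCBP1 knockdown on Day 2. Among 42 red cell membrane and erythroid genes, 25 held 60, with 0 called in any table. Of 30 cytoskeleton and trafficking genes, 29 held 259 LSVs, with Clasp1 called on Day 0 and Myh10 on Day 2, both with PCBP1 knockdown. Of 35 chromatin and DNA methylation genes, 32 held 190, with the 2 LSVs of the Ehmt2 exon called on Day 0 and Arid1b on Day 2, both with PCBP1 knockdown. With PCBP1 knockdown the calls were 0 of 133, 0 of 43, 1 of 248 and 2 of 180 LSVs of the lists in that order on Day 0, where 0.0483% of all exon-skipping-only LSVs were called. On Day 2 they were 1 of 102, 0 of 52, 1 of 129 and 1 of 128, where 0.132% were. Counts of 1 or 2 give no more than the genes named. The median absolute E(dPSI) in the authors' deposited table of PCBP1 knockdown on Day 2 was 0.14, 0.01, 0.39 and 0.03 points in the 4 lists in that order, against 0.3 points over all exon-skipping-only LSVs. These medians are small beside the 20 points of the call rule.

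Uncalled list members still showed differences in the pooled values. Celf1, an RNA-binding splicing regulator, had its longest junction at 31.8% in PCBP1 knockdown, 43.5% in PCBP2 knockdown and 57.9% in control on Day 2. Its transcript shares overlapped between PCBP1 knockdown (38.6%, 63.5% and 34.6%) and control (66.7%, 54.2% and 65.1%). Of the PCBP family and its relatives, Pcbp1, Pcbp2 and Pcbp4 had no exon-skipping-only LSV, Pcbp3 had 10 and Hnrnpk 2, with none called. Epb41 (Epb4.1 in the authors' tables), the protein 4.1 gene with a textbook exon switch in erythroid cells, had 4 on Day 2 and none on Day 0. The longest junctions of Epb4.1 were at 90.3% to 99.4% in PCBP1 knockdown, 92.0% to 99.7% in PCBP2 knockdown and 93.7% to 99.8% in control, and none of the 4 was called. The transcription factor gene Runx1 had 2, with none called.

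Day 2 and Day 0 were compared within each condition, since the tables hold no such contrast. Of 664 control cassettes listed on both days, 585 (88.1%) had skipping within 5 points, 22 were at least 10 points higher on Day 2 and 9 at least 10 points lower. PCBP1 knockdown had 581 of 628 within 5 points (92.5%) and PCBP2 knockdown 505 of 578 (87.4%). Among those that differed by 20 points or more in control were Ifi203, an interferon-inducible gene, at 60.2% on Day 2 and 4.6% on Day 0, the endoplasmic reticulum exit site scaffold Sec16a, at 20.9% and 0.3%, and Scai, at 37.4% and 66.3%.

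The transcript ratios gave far more calls. Of 1666 exon-skipping-only LSVs fitted with limma over all 18 libraries, 1251 were called in control, 728 higher on Day 2 and 523 lower, where 74.2% of all 2089 fitted LSVs were called, 43.9% higher and 30.3% lower. PCBP1 knockdown had 1156, with 679 higher and 477 lower (all LSVs 68.3%, 40.8% and 27.5%), and PCBP2 knockdown 1205, with 706 higher and 499 lower (71.6%, 42.4% and 29.2%). These counts depend on scale. With 0.1 TPM added in place of 0.5 the control count was 710, with at least 1 TPM required on each side 300 of 648, and as fractions with nothing added 141 of 776. Globin transcripts took 24.7% to 33.5% of the estimated reads on Day 2 and 0.301% to 0.485% on Day 0, and most other transcripts had lower TPM on Day 2.

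The junction values went along with only part of these calls. In control, 572 LSVs had both readouts and 399 were called by limma. Of these, E(PSI) was within 5 points between the days for 292, differed in the same direction for 97 and in the opposite one for 10. For Smg1, the share was 28.2% on Day 2 and 0.3% on Day 0 while E(PSI) was 0.6% and 0.2%. The day differences given next are therefore those with at least 20 points in E(PSI) and a call in the same direction, a rule chosen after the values were seen.

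By that rule, 32 LSVs in 31 genes differed in control, with 18 genes higher on Day 2 and 13 lower. PCBP1 knockdown had 21 genes and PCBP2 knockdown 35, and 14 genes were in all 3 conditions. As fractions without added TPM, 28 of the 32 could be fitted and 27 were called by limma. The 32 were picked for a call on the same TPM values, so this is not separate support. Among all exon-skipping-only LSVs fitted as fractions in control, given above, the share called was much lower. Arrb1, beta-arrestin 1, had its longest junction at 64.9% on Day 2 and 97.4% on Day 0. The Arrb1 transcript shares were 71.1%, 65.5% and 66.3% on Day 2, against 94.8%, 91.5% and 94.9% on Day 0 (log2 difference -2.80, limma adjusted p = 3.79e-08). Mycbp2, a ubiquitin ligase, was at 54.7% and 99.9%, with shares of 53.6 ± 6.5% and 94.3 ± 2.5% (SD, n = 3 each). Arap1, an Arf GTPase-activating protein, was at 17.4% and 91.8%, and its shares were 23.5%, 28.3% and 50.8% on Day 2, with LUC-1 highest, against 76.8%, 67.2% and 77.1% on Day 0. Samhd1, a dNTP hydrolase, was at 49.1% and 77.8%, and Cit, citron kinase, at 19.7% and 59.8%.

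Higher on Day 2 were Bscl2, seipin of lipid droplets, at 32.0% and 2.8%, with shares of 32.5 ± 9.3% on Day 2 and 4.6 ± 1.7% on Day 0, and Ctage5, of cargo export from the endoplasmic reticulum, at 59.5% and 19.9%, with 46.7 ± 3.6% and 15.2 ± 1.3%. Ip6k2, an inositol hexakisphosphate kinase, was at 97.5% and 68.7%, and Pus1, a pseudouridine synthase, at 27.7% and 2.9%. For Txndc11, the 2 readouts gave the same direction but different levels, at 61.4% on Day 2 and 16.6% on Day 0 by junction, and 14.9 ± 2.7% and 9.0 ± 2.2% by transcript.

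**Figure D5:**
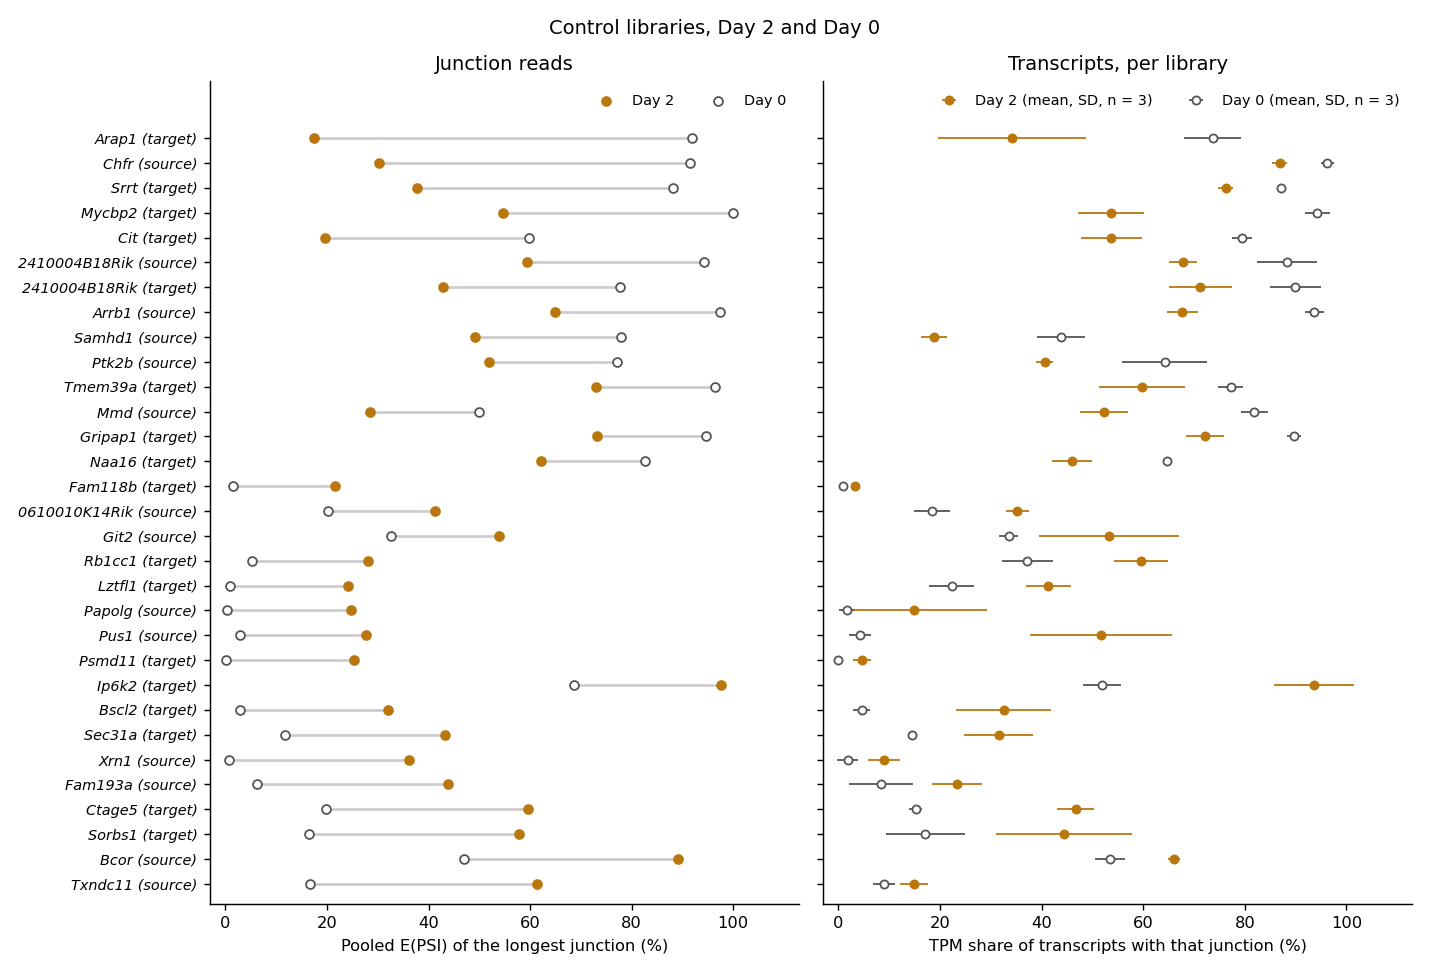
Control libraries for 31 of the 32 exon-skipping-only LSVs that differ between the days by both readouts; left, pooled E(PSI) of the longest junction (x axis, %), right, TPM share of transcripts with that junction (x axis, %; points are means and bars SD, n = 3). Filled points are Day 2 and open points Day 0, and the shares of Arrb1 (67.7 ± 3.0% and 93.7 ± 1.9%) are among the closest to the junction values.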

How the data were processed

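Short-read RNA-seq libraries (TruSeq kit, total RNA) were aligned with STAR 2.5.3a and quantified with Salmon 0.11.3 on GRCm38, per the submitters' processing notes, which also name FastQC 0.11.9, Trim Galore 1.46.0 and SAMtools 1.9. The authors deposited estimated counts and TPM per transcript and library, and splicing tables per knockdown and day with E(PSI), E(dPSI) and a posterior probability per junction as fractions over pooled libraries. The tool behind the splicing tables is not given in the sources used here.

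From these, simple cassettes were built where a source and a target LSV of 2 junctions shared the longest junction. Exons, coding frame and junctions came from GENCODE M21, by transcript ID (110403 of 111706 listed transcripts matched). A junction column whose name speaks of de novo junctions marks annotated ones, so annotation was taken from M21. For values per library, TPM was summed over transcripts with the longest junction and over those with the other junctions, and log2 of their ratio, each with 0.5 TPM added, was fitted with limma 3.58.1 (trend, Benjamini-Hochberg adjustment over all intron-free LSVs fitted). LSVs needed a summed mean of 2 TPM and 0.1 TPM on each side. Host genes were tested with edgeR 4.0.16 (quasi-likelihood, TMM) on rounded estimated counts summed per gene, for 17500 of 46167 genes. Depth was 27033440 to 54096339 estimated reads; the reads behind a junction are not given. Intervals are exact binomial at the 95% level. The scripts were tested on simulated data. The calls were recomputed under other thresholds, added constants, filters and tools (R 4.3.3, DESeq2 1.42.0, Python 3.11.15).

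The rule for named genes took, per splicing table, up to 8 called LSVs with the largest absolute E(dPSI) (filled up to 4 by posterior), per fitted comparison up to 4 called LSVs with the smallest p and no overlap of groups, the PCBP genes with Hnrnpk, Runx1 and Epb41, and up to 3 members of each gene list. The other called LSVs, the cassettes by skipping level and the day differences by both readouts were named after their values were seen. Genes were matched by gene ID, since the splicing tables hold older symbols for some. The members and gene lists were chosen with earlier results of these data known, and the 10-point and 20-point limits after the values were seen. The comparison of individual libraries by E(PSI) could not be made, since the splicing tables hold pooled groups. A few genes are not reported here by name.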

Additional observations from a re-analysis of the deposited data

How the results depend on the processing

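The authors' calls depend on their threshold. The main counts of 15, 1, 24 and 13 (PCBP1 and PCBP2 knockdown on Day 0, then on Day 2) became 8, 0, 13 and 7 at a posterior of 0.99, and 62, 26, 109 and 79 with an absolute E(dPSI) of 0.20 or more and no posterior. At 0.90, 4 were called with PCBP2 knockdown on Day 0 and 44 with PCBP1 knockdown on Day 2. Among LSVs with every junction annotated, 8, 2 and 1 were called with PCBP1 knockdown on Day 0 and on Day 2 and with PCBP2 knockdown on Day 2. LSVs of 2 junctions, an alternative chosen after seeing the data, gave 9 and 2 on Day 2 for PCBP1 and PCBP2 knockdown.

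The limma counts for transcript ratios were low and moved with the settings. For PCBP1 knockdown on Day 0, the main count of 2 became 7 with all 18 libraries in 1 fit and 4 with low unannotated junctions allowed (also chosen after seeing the data). PCBP2 knockdown on Day 0 had 0 as the main count, 1 with 0.1 TPM added and 3 with all 18 libraries. PCBP1 knockdown on Day 2 had 0, and 1 with at least 1 TPM on each side. The single call with PCBP2 knockdown on Day 2 was 0 with 0.1 TPM added, without a filter, with all 18 libraries, without the variance trend, with low unannotated junctions allowed and as fractions. Leaving out 1 library gave 0 to 2, 0 to 1, 0 to 1 and 0 to 1 in the same order of comparisons.

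The day counts of 1251 in control, 1156 in PCBP1 knockdown and 1205 in PCBP2 knockdown became 710, 537 and 702 with 0.1 TPM added, 2026, 1927 and 1972 without a filter, 300, 240 and 297 with at least 1 TPM on each side, 2325, 2146 and 2261 with low unannotated junctions allowed, and 141, 102 and 176 as fractions (chosen after seeing the data). Without 1 library they lay between 1150 and 1224, 1065 and 1115, and 1124 and 1194. The cause of these shifts was not tested.

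The host gene counts of 96, 2, 1277 and 473 were 235 and 13 without a filter on Day 0 for PCBP1 and PCBP2 knockdown. With the 9 libraries of the day alone they were 643 (PCBP1, Day 0), 434 (PCBP1, Day 2) and 18 (PCBP2, Day 2), and with DESeq2 289, 10 and 987 (PCBP1 and PCBP2 on Day 0, PCBP2 on Day 2). Without 1 library they lay between 9 and 76, 0 and 3, 787 and 1554, and 248 and 543.

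Hairpin names are shared across the days, but none of 9 pairs of libraries with the same name had a correlation of deviations over 0.1, and 3 correlated best with their own name, so the names were not taken as pairs. With the hairpin name as a replicate block, 1236, 1139 and 1204 LSVs were called between the days, and the block changed none of these counts by over 1.5 times. Of 1647 repeats of the named ratios, 1587 kept direction and side of the threshold, 58 lost the call, 1 gained it, and Fyn with PCBP2 knockdown on Day 2, at 0.185 and not called, changed sign at -0.03 without SH4 and reached 0.313 without SH1. The pooled splicing values have no library-level check, and an E(PSI) difference between sides of a cassette, as in Mfge8, is the nearest to an error that they hold.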
